A study of Gallus gallus with 30 samples.

Results

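ALDH1A1, ALDH1A2 and ALDH1A3, which make retinoic acid, CYP26A1, which breaks it down, CRABP1, which binds it in the cytoplasm, and the receptors RARB and RXRG were followed through chicken development. The genes were picked by the gene symbol of the array's annotation, and each was read from its probe set of highest mean log2 signal. All 7 were on the array, out of 13008 chicken genes with a symbol there. They had 12 of the 37693 chicken probe sets, and the 7 probe sets used all passed the filter on low signals.

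Retinoic acid is made from retinol inside the embryo: enzymes such as RDH10 oxidise retinol to retinaldehyde, and the ALDH1A enzymes oxidise that to retinoic acid. CYP26 enzymes degrade it, and pairs of RAR and RXR receptors bound to DNA switch target genes such as Hox genes in answer to it. In vertebrate embryos it is known for patterning the hindbrain, the somites, the limb field and the eye.

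The samples were whole wild type chicken embryos (Gallus gallus) of the Nera line, of mixed sex and freed of yolk and amnion, from eggs incubated at 37.5 degrees Celsius. They came from 15 Hamburger-Hamilton (HH) stages: blastoderm and primitive streak (HH1, HH2 and HH4), neurulation (HH6, HH8 and HH9), early somite and organ rudiment stages (HH11, HH14 and HH16), limb bud stages (HH19, HH24 and HH27) and embryos with formed organs (HH32, HH34 and HH38). Each stage had 2 pools of RNA from several embryos, given as biological replicates, with 1 Affymetrix Chicken Genome Array each. With 2 arrays per stage, 1 pool can move a stage mean, and precision is limited accordingly.

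Signals are the deposited MAS5 values on a linear scale. The background of an array, the 95th percentile of its probe sets for other organisms, was 25.4 to 47.2, and 65% to 72.8% of chicken probe sets exceeded it. Between the arrays of a stage r was 0.94 to 0.958, and 23 of the 30 arrays were most like the other array of their own stage. The rest were most like an array of another stage. Both HH38 arrays stood apart in the ratio of 3' to 5' actin signal (2.48 and 2.99, against 1.54 to 2.01 on all other arrays), so changes at HH38 relative to HH16 are also given with HH34 in its place. In RNA of whole embryos, fewer cells of a type and less RNA per cell cannot be told apart.

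All 7 genes differed between stages by the moderated F test of limma, with adjusted p between 2.45e-17 (CRABP1) and 0.000485 (RXRG). The background is high, since 69% of the 29600 probe sets tested did so too. A change between stages was called where limma's adjusted p was below 0.05 and the change at least 2-fold. Log2 changes are later minus earlier stage, ± the standard error of limma's fit, from 2 arrays at each stage.

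**Figure D1:**
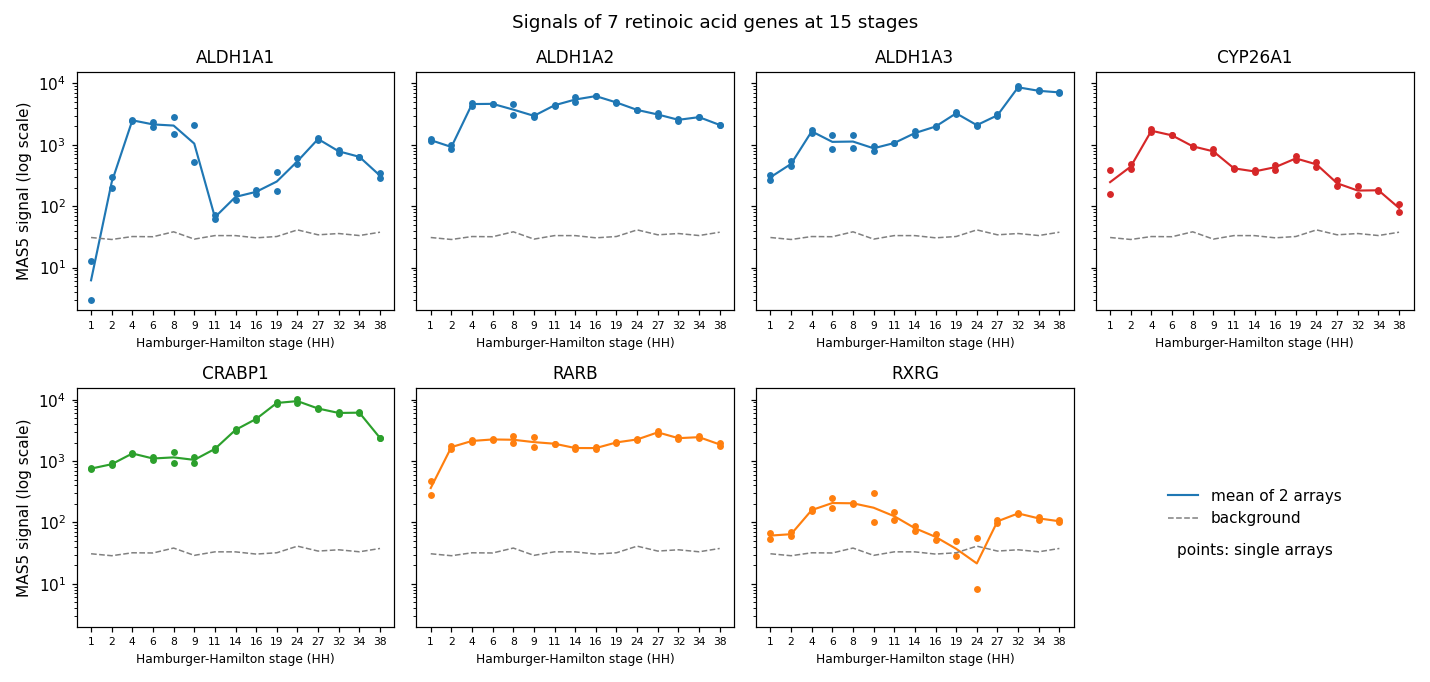
MAS5 signal (log scale) of the 7 genes against stage. Points are single arrays, lines join the geometric means of the 2 arrays of a stage, and the dashed line is the background. ALDH1A1 is below background at HH1, high from HH4 to HH8 and low at HH11, while CYP26A1 is highest at HH4, ALDH1A2 at HH16, CRABP1 at HH24, RARB at HH27 and ALDH1A3 at HH32.

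The 3 synthesis enzymes followed different courses. ALDH1A1, known from the dorsal retina among other tissues, had signals of 3.01 and 12.8 at HH1, under backgrounds of 28.9 and 32.8. Signals were 200.3 and 302 at HH2 and 2486 and 2527 at HH4, the highest stage. Both HH1 arrays were below background, and the other 28 arrays were above it. ALDH1A1 was at least 7.99-fold higher at HH2 than at HH1 (adjusted p = 6.45e-08), and it rose again at HH4 relative to HH2, by 3.35 ± 0.52 (adjusted p = 4.27e-05).

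Markers of yolk sac endoderm and liver moved at these steps too. Of 7, 3 were higher and 1 lower at HH2 than at HH1, and 5 were higher and 0 lower at HH4 than at HH2. The 1 called lower was APOB, with stage means of 10.3 at HH1 and 1.64 at HH2, both below background. The summed signal of the 7 was 7109 and 8402 at HH1, 12114 and 12729 at HH2 and 80391 and 82489 at HH4. On each array of HH1 and HH2, 1 marker was at or below background, and 0 at HH4. These values stand beside every rise at HH2 and HH4 given here, those of ALDH1A2, ALDH1A3, CYP26A1 and RARB included, and the part of these cells in them was not tested.

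ALDH1A1 stayed high over neurulation and then fell. It had 2389 and 1934 at HH6, 2817 and 1502 at HH8 and 2108 and 519 at HH9. At HH11 it had 70.6 and 61.8, below every array from HH2 to HH9. It fell by 3.98 ± 0.52 on the log2 scale (adjusted p = 1.04e-05) at HH11 relative to HH9. The HH9 pools were unlike each other, and the change was -2.97 without replicate 1 of HH9 and -4.996 without replicate 2, called both times.

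Marker sums also differed at the step to HH11. Of the 7 yolk sac and liver markers, 4 were lower and 0 higher at HH11 than at HH9, with a summed signal of 61907 and 62062 at HH11, against 109421 and 110770 at HH9. None of the 7 was at or below background at either stage. Of 9 markers of skeletal and cardiac muscle, 5 were higher and 0 lower. Their sum was 19369 and 19818 at HH11, against 3960.1 and 8276 in replicates 1 and 2 of HH9. The HH9 replicate with the higher muscle sum was the one with the lower ALDH1A1 signal. The part of these cells, and of a difference in progress between the HH9 pools, was not tested.

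ALDH1A1 had a later high at HH27. Signals were 125 and 161 at HH14, 184 and 159.9 at HH16, 178 and 357 at HH19 and 485 and 599.8 at HH24. They reached 1301 and 1186 at HH27, and were 829 and 739 at HH32, 636 and 638 at HH34 and 286 and 346 at HH38. None of the steps after HH11 was called, though arrays did not overlap at the rises to HH14, HH24 and HH27. The standard error of this gene is shared by all stages. It takes in the spread between the arrays of HH1 and of HH9 (standard deviation of log2 1.48 and 1.43). That spread was 0.22 at HH24 and 0.095 at HH27. A missing call here thus does not show that a step was small. The change at HH38 relative to HH16 was 0.88 ± 0.52 (adjusted p = 0.198), whereas at HH34 relative to HH16 the gene rose by 1.89 ± 0.52 (adjusted p = 0.00622). The yolk sac and liver markers had their lowest sum at HH19 (6444 and 6794). At HH27 relative to HH24, 1 of the 7 was higher and 0 lower, with 0.922% of all probe sets called. Their median log2 change there was 0.90, and 7 of 7 had an unadjusted p below 0.05 by limma. The called marker was ALB, with stage means of 118 at HH24, 696 at HH27 and 22218.5 at HH32. The part of these cells in the later high of ALDH1A1 was not tested.

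ALDH1A2, the main retinoic acid producing enzyme of trunk mesoderm in vertebrate embryos, was above background on all 30 arrays. Signals were 1142 and 1242 at HH1, 996 and 854 at HH2 and 4353 and 4878 at HH4. Both HH4 arrays were far above the 4 earlier ones, and the rise at HH4 relative to HH2 was 2.32 ± 0.12 (adjusted p = 3.32e-12). The change at HH2 relative to HH1 was -0.37 ± 0.12 (adjusted p = 0.0279), under 2-fold.

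After HH4 no single step of ALDH1A2 was called. Signals were 4667 and 4625 at HH6, 3055 and 4583 at HH8, 2887 and 3036 at HH9 and 4455 and 4359.6 at HH11. They were 5977 and 4993 at HH14, 6222 and 6208 at HH16, the highest stage, and 4819 and 4952 at HH19. In the order of stage means HH16, HH14 and HH19 stood first, without overlap between neighbours. HH6, HH4, HH11, HH8 and HH24 followed, each overlapping with the next. Beyond neighbours, HH19 overlapped with HH4 (4353 and 4878).

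The decline of ALDH1A2 after HH16 was gradual. Signals were 3663 and 3738 at HH24, 2986 and 3255 at HH27 and 2479 and 2628 at HH32. HH34 had 2796 and 2849 and HH38 2109 and 2103. Over the whole span ALDH1A2 fell by 1.56 ± 0.12 on the log2 scale (adjusted p = 6.01e-10) at HH38 relative to HH16, and fell by 1.14 ± 0.12 on the log2 scale (adjusted p = 1.3e-07) at HH34 relative to HH16. On this probe set both HH38 arrays were still above the HH1 and HH2 arrays, which does not hold for the second ALDH1A2 probe set described further on.

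Markers of somites and paraxial mesoderm, a tissue known to express ALDH1A2, also moved at HH4. Of 10 such markers 5 were higher and 0 lower at HH4 than at HH2. Their summed signal was 1116 and 1245 at HH4, with 1 marker at or below background on each array, against 354 and 372 at HH2, with 7 at or below it. At HH38 relative to HH16, where ALDH1A2 fell, 0 of the 10 were higher and 2 lower, with a median log2 change of -0.84. Their sum was nevertheless 4702 and 4718 at HH38, against 2372 and 2339.9 at HH16, most of it from MEOX2, with a stage mean of 3808 at HH38, against 744 at HH16. The part of these cells in the rise and the fall was not tested.

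ALDH1A3, which catalyses the same reaction and is known from the ventral retina, was highest in the late stages. Signals were 324 and 270.2 at HH1, 538 and 443 at HH2 and 1764 and 1551 at HH4, with a rise at HH4 relative to HH2 of 1.76 ± 0.19 (adjusted p = 2.52e-07). They were 1436 and 867 at HH6, 1434 and 889.5 at HH8, 795 and 967 at HH9 and 1075 and 1064 at HH11. The arrays from HH6 to HH11 were all below those of HH4.

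In the middle of the course ALDH1A3 had 1678 and 1434 at HH14, 1981 and 1986 at HH16, 3375 and 3145 at HH19, 2047 and 2133 at HH24 and 3149 and 2905 at HH27. The step to HH19 had 0.72 ± 0.19 (adjusted p = 0.0462), under 2-fold. At HH16 relative to HH1 the gene rose by 2.75 ± 0.19 (adjusted p = 3.53e-11).

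At HH32 ALDH1A3 reached 8349.9 and 8939, against 3149 and 2905 at HH27, a rise of 1.51 ± 0.19 (adjusted p = 2.81e-05). HH34 had 7406 and 7757 and HH38 6945 and 7329.9. All arrays of these last 3 stages were above all arrays of the earlier ones. The rise at HH38 relative to HH16 was 1.85 ± 0.19 (adjusted p = 3.13e-08), and at HH34 relative to HH16 it was 1.93 ± 0.19 (adjusted p = 2.47e-08).

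Markers of other tissues were set beside this rise. Of 8 markers of retina and eye, 0 were higher and 0 lower at HH32 than at HH27 by limma (2 of them had an unadjusted p below 0.05). Their sum was 11888 and 11559.7 at HH32, against 8076 and 7435 at HH27. At HH38 it was 4946 and 5042, against 12668 and 14547 at HH34, with 0 markers higher and 3 lower. Most of this sum was OTX2 and PAX6, with stage means of 7372 and 4448 at HH34 and 2435 and 1127 at HH38. OTX2 already had 4993 at HH1, and MITF moved the other way (434 at HH34, 840 at HH38). ALDH1A3 had -0.087 ± 0.19 at HH38 relative to HH34. Other lists moved at HH32 relative to HH27. Of 7 yolk sac and liver markers 4 were higher and 0 lower, with sums of 65641 and 60188 at HH32, against 17792 and 16910.2 at HH27. Of 9 markers of skeletal and cardiac muscle 2 were higher and 0 lower. Their sums were 49943 and 51228 at HH32, against 32389.7 and 34204 at HH27. The part of these tissues in the course of ALDH1A3 was not tested.

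CYP26A1, an enzyme that oxidises retinoic acid and is known from the anterior neural plate and the tail bud, was highest early. Signals were 158 and 384 at HH1, 483 and 403 at HH2 and 1610 and 1783 at HH4. HH4 was the highest stage, without overlap with any other. The rise at HH4 relative to HH2 was 1.94 ± 0.26 (adjusted p = 8.78e-06), at the step where the 3 synthesis enzymes also rose. The change at HH2 relative to HH1 was 0.84 ± 0.26 (adjusted p = 0.02), under 2-fold. It was 0.20 (adjusted p = 0.619) without HH1 replicate 1 and 1.48, then called, without the brighter replicate 2, so the HH1 arrays decide it.

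The stage means of CYP26A1 then became lower until HH14. Signals were 1419 and 1429 at HH6, 926 and 964 at HH8, 722 and 847 at HH9, 409 and 418 at HH11 and 354 and 382 at HH14. HH4, HH6, HH8 and HH9 did not overlap with each other. The step to HH11 had -0.92 ± 0.26 (adjusted p = 0.0238), under 2-fold.

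A smaller high of CYP26A1 lay at HH19. Signals were 392 and 476 at HH16, 558 and 645 at HH19, 532 and 432 at HH24 and 266 and 209.7 at HH27. HH19 stood above HH16 and HH24 without overlap, but the step to it was not called (0.47 ± 0.26, adjusted p = 0.509). CYP26A1 fell by 1.02 ± 0.26 on the log2 scale (adjusted p = 0.0341) at HH27 relative to HH24. This call was lost without HH24 replicate 1 (-0.87, adjusted p = 0.275) and without either HH27 array (-1.19 and -0.85, adjusted p = 0.0827 and 0.26), with adjusted p of 0.00276 to 0.275 over all alternatives.

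Late in the course CYP26A1 had 149.8 and 215 at HH32, 184 and 179 at HH34 and 79.4 and 109.8 at HH38, its lowest stage. It fell by 2.21 ± 0.26 on the log2 scale (adjusted p = 3.95e-07) at HH38 relative to HH16, and fell by 1.25 ± 0.26 on the log2 scale (adjusted p = 0.000665) at HH34 relative to HH16. Its change at HH16 relative to HH1 was 0.81 ± 0.26 (adjusted p = 0.0159), under 2-fold. Without HH1 replicate 2 that change was 1.45 and called, and without HH1 replicate 1 it was 0.17.

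CRABP1, a small protein that binds retinoic acid in the cytoplasm and is known from the hindbrain and neural crest, had 1 broad high in the limb bud stages. Signals were 738 and 769 at HH1, 922 and 856 at HH2 and 1341 and 1316 at HH4. They were 1149 and 1053 at HH6, 1427 and 923 at HH8, 1175 and 929 at HH9 and 1506 and 1649.8 at HH11. In the order of means HH4, HH8, HH6 and HH9 overlapped from each to the next, and HH11 stood above them.

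CRABP1 then rose at HH14 relative to HH11 by 1.03 ± 0.14 (adjusted p = 0.00018), with 3099 and 3344 at HH14. The rise lies close to the 2-fold limit and was 0.96 without HH11 replicate 1 and 0.98 without HH14 replicate 2. Signals were 5011 and 4709 at HH16, 8549 and 9135 at HH19 and 10267 and 8739 at HH24. HH19 and HH24 overlapped and were above all other stages. The change at HH19 relative to HH16 was 0.86 ± 0.14 (adjusted p = 0.000638), under 2-fold, and over the longer span CRABP1 rose at HH16 relative to HH1 by 2.69 ± 0.14 (adjusted p = 2.03e-13).

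From HH24 on CRABP1 had 7007 and 7337 at HH27, 6302 and 5853 at HH32 and 6031 and 6253 at HH34. At HH38 it had 2401 and 2358, and fell by 1.37 ± 0.14 on the log2 scale (adjusted p = 3.15e-07) relative to HH34. It also fell by 1.03 ± 0.14 on the log2 scale (adjusted p = 1.52e-06) at HH38 relative to HH16. This call depends on HH38, since at HH34 relative to HH16 the change was 0.34 ± 0.14 (adjusted p = 0.0606), and it was -0.98 without HH16 replicate 1.

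Markers of cells known to hold CRABP1 were counted at the same steps. Of 8 markers of hindbrain and cranial neural crest, 6 were higher and 0 lower at HH16 than at HH1, and 0 higher and 0 lower at HH14 than at HH11 (by limma, 1 had an unadjusted p below 0.05 there). Of 9 neuron markers, 1 was higher at HH14 than at HH11 and 5 were higher at HH19 than at HH16, with 0 lower at both steps. Their sum was 22012 and 20452 at HH19, against 9919.9 and 9878 at HH16, and 24030.5 and 28852 at HH38, against 38062 and 36313 at HH34. Hindbrain and crest markers summed to 7753 and 7498 at HH38, against 8132 and 8521 at HH34, and 0 of them were lower there. The part of these cells in the course of CRABP1 was not tested.

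RARB, a nuclear receptor whose gene is a well-known target of retinoic acid, had its only called step at the start. Signals were 1593 and 1789 at HH2, against 284 and 465 at HH1, a rise of 2.22 ± 0.17 (adjusted p = 1.98e-09). This step came before the called rises of ALDH1A2, ALDH1A3 and CYP26A1 at HH4, and was shared with ALDH1A1. That order is one of calls and depends on the 2-fold limit. ALDH1A3 (stage means 296 at HH1, 488 at HH2) and CYP26A1 (247 and 441) were also higher at HH2, under 2-fold, whereas ALDH1A2 was lower (1191 and 922).

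From HH4 on RARB kept within a narrow range. Signals were 2049 and 2205 at HH4, 2217 and 2279 at HH6, 2519 and 1960.4 at HH8, 2464 and 1678 at HH9, 1903 and 1926 at HH11, 1673 and 1587 at HH14 and 1695 and 1560.1 at HH16. They were 2059 and 1966 at HH19, 2308 and 2189 at HH24, 2745 and 3132 at HH27, 2289 and 2429.8 at HH32, 2571 and 2332 at HH34 and 1946 and 1786 at HH38. HH27 was the highest stage, without overlap with the others. Of the 14 neighbouring pairs in the order of stage means 10 overlapped. RARB was higher at HH16 than at HH1 by 2.16 ± 0.17 (adjusted p = 3.68e-10), and its change at HH38 relative to HH16 was 0.20 ± 0.17 (adjusted p = 0.399). At HH34 relative to HH16 it was 0.59 ± 0.17 (adjusted p = 0.00904), past the p limit but under 2-fold.

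RXRG, a partner receptor known from skeletal muscle and retina, lay near background. Signals were 54.4 and 68.5 at HH1, 69.7 and 59.3 at HH2, 164 and 154 at HH4, 174 and 246 at HH6, 208 and 202 at HH8, 301 and 100 at HH9 and 147 and 108 at HH11. Then came 87.9 and 73.9 at HH14, 51.7 and 65.4 at HH16, 28.2 and 48.9 at HH19 and 8.28 and 55.7 at HH24. The first arrays of HH19 and HH24 were below background, and the other 28 arrays were above it. From HH27 on signals were 109 and 99.1 at HH27, 138 and 142 at HH32, 124 and 109 at HH34 and 99.9 and 109 at HH38.

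By stage means RXRG was thus highest from HH4 to HH9, lowest at HH19 and HH24, and between these later on. The HH9 arrays were far apart (301 and 100), and the dimmer was below both arrays of HH11, HH32 and HH34. The only called step of RXRG was a rise at HH27 relative to HH24 (adjusted p = 0.0258), at least 2.03-fold with background in place of the dim HH24 array. The call was lost without HH24 replicate 1 (0.90, adjusted p = 0.531) and without either HH27 array (adjusted p = 0.151 and 0.121), with adjusted p of 0.000113 to 0.531 over all alternatives. The change was -0.07 ± 0.56 at HH16 relative to HH1, 0.85 ± 0.56 at HH38 relative to HH16 and 1.00 ± 0.56 (adjusted p = 0.199) at HH34 relative to HH16, none of them called. Of 9 markers of skeletal and cardiac muscle 1 was higher and 0 lower at HH27 than at HH24. Their sums were 32389.7 and 34204 at HH27, against 25689 and 24520.2 at HH24. The largest stage means in these sums were those of ACTC1 (14199 at HH27, 11879 at HH24) and MYH15 (5309 and 5496). The called marker, TNNC2, had 2284 at HH27, against 1090 at HH24, and MYL1 had 4765, against 2031. The part of these cells in the result was not tested.

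**Figure D2:**
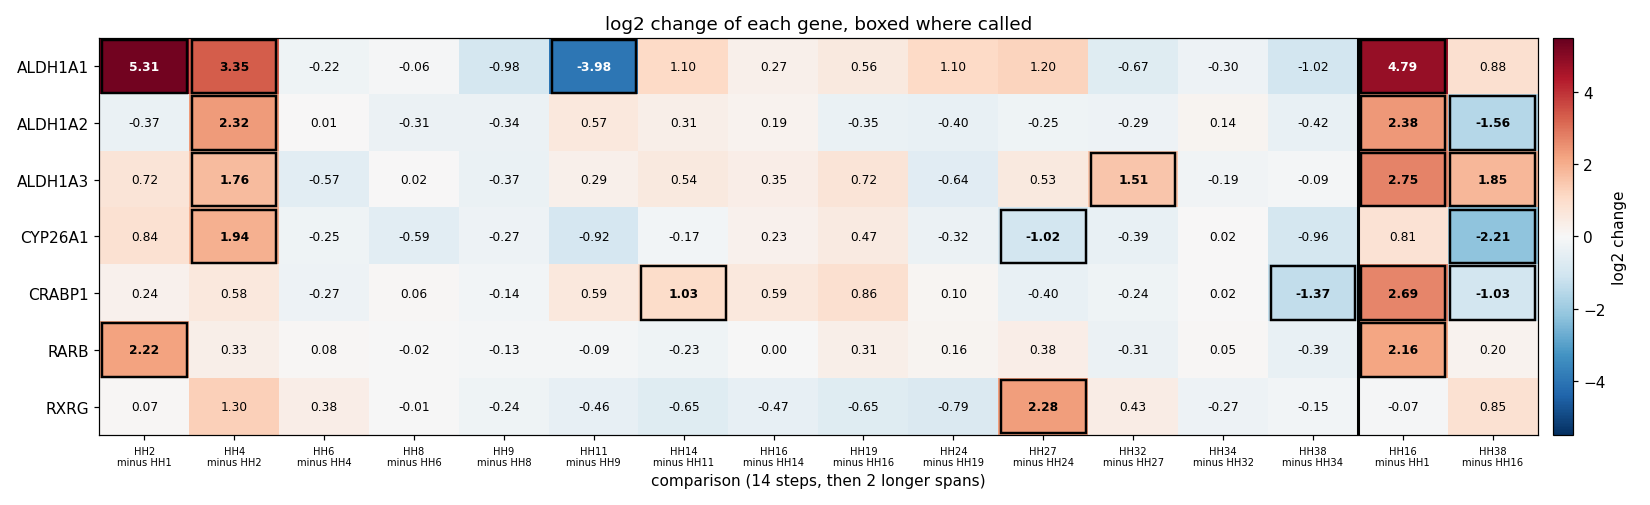
Log2 change of the 7 genes at the 14 steps between neighbouring stages and over 2 longer spans, later minus earlier stage, with called changes marked. The steps to HH2 and HH4 hold 6 of the 12 called step changes, all of them rises. Over all probe sets tested these 2 steps also held most calls (3206 and 2395 of 9574), so this concentration is not particular to the 7 genes.

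Over the 14 steps, 12 of the 98 pairs of gene and step were called, 9 higher and 3 lower, where 2.31% of all pairs of probe set and step were called. Shares over all probe sets also cover dimmer probe sets of a gene and probe sets without a symbol. The 7 are each the brightest probe set of a gene, so the comparison is not of like with like. At HH2 relative to HH1, 2 of 7 were higher (ALDH1A1 and RARB), with 10.8% of all probe sets called and 5.43% higher. At HH4 relative to HH2, 4 of 7 were higher (ALDH1A1, ALDH1A2, ALDH1A3 and CYP26A1), with 8.09% of all probe sets called and 6.24% higher. The median log2 change at that step was 1.76 for the 7 genes and 0.041 over all probe sets tested.

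Single genes were called at 4 further steps and a pair at 1. ALDH1A1 was called at HH11 (background 4.76%), CRABP1 at HH14 (0.463%) and HH38 (3.8%), ALDH1A3 at HH32 (1.02%), and CYP26A1 and RXRG, in opposite directions, at HH27 (0.922%). No gene of the 7 was called at the other 7 steps. There the background was 0.324% at HH6, 0.189% at HH8, 0.176% at HH9, 0.0709% at HH16, 0.872% at HH19, 0.757% at HH24 and 0.0608% at HH34.

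At HH16 relative to HH1, 5 of 7 genes were higher and 0 lower, with 24.8% of all probe sets called and 15% higher. These were ALDH1A1 (at least 5.56-fold, adjusted p = 6.3e-08), ALDH1A3, CRABP1 and RARB as given above, and ALDH1A2, which rose by 2.38 ± 0.12 (adjusted p = 3.12e-13). The median log2 change was 2.38 for the 7 genes and 0.041 over all probe sets tested.

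At HH38 relative to HH16, 1 of 7 was higher (ALDH1A3) and 3 lower (ALDH1A2, CYP26A1 and CRABP1), with 20.1% of all probe sets called, 12.2% higher and 7.88% lower. At HH34 relative to HH16, 2 were higher (ALDH1A1 and ALDH1A3) and 2 lower (ALDH1A2 and CYP26A1), with a background of 14.5%. ALDH1A2, ALDH1A3 and CYP26A1 were called the same way at both late stages. The spans share the HH16 arrays.

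**Figure D3:**
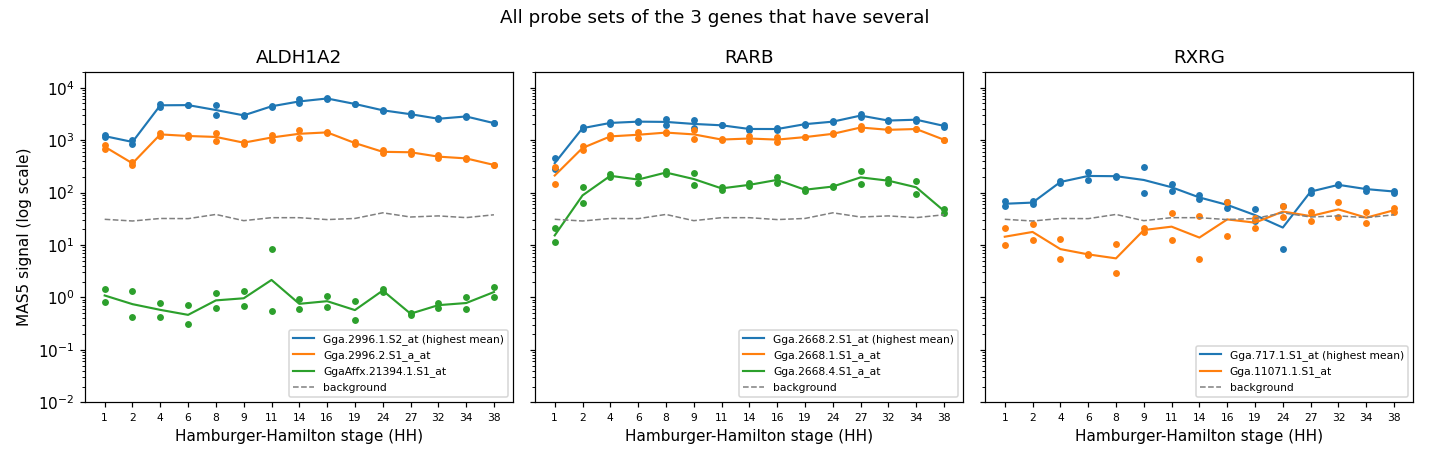
MAS5 signal (log scale) against stage for all probe sets of the genes with more than 1. Points are single arrays, lines join the geometric means of the 2 arrays, and the dashed line is the background. The third ALDH1A2 probe set is below background on all 30 arrays, and the second RXRG probe set is above it on 10.

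Genes with several probe sets did not give 1 answer. The second ALDH1A2 probe set had 811 and 689.5 at HH1, 385 and 337 at HH2, 1193 and 1382 at HH4, 1437 and 1369 at HH16 and 332 and 339.8 at HH38. It fell by 1.05 ± 0.16 on the log2 scale (adjusted p = 3.44e-05) at HH2 relative to HH1 and rose at HH4 relative to HH2 by 1.83 ± 0.16 (adjusted p = 1.83e-08). Its change at HH16 relative to HH1 was 0.91 ± 0.16 (adjusted p = 8.15e-05), under 2-fold, where the first had 2.38. It fell by 2.06 ± 0.16 on the log2 scale (adjusted p = 7.28e-10) at HH38 relative to HH16, and fell by 1.65 ± 0.16 on the log2 scale (adjusted p = 4.03e-08) at HH34 relative to HH16. The 2 probe sets shared the direction of these changes (r = 0.735 over 15 stage means). They differed in where they ended: at HH38 the first was above its HH1 level (2106 at HH38, against 1191 at HH1, stage means) and the second below its own (336 at HH38, against 748 at HH1). The net course of ALDH1A2 since HH1 therefore depends on the probe set.

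All 3 RARB probe sets rose at HH2 relative to HH1. The second had 644 and 778 at HH2, against 144 and 309.6 at HH1, a rise of 1.75 ± 0.23 (adjusted p = 3.32e-06), and followed the first with r = 0.973. The other one had 62.4 and 125 at HH2, against 20.8 and 11.2, below background, at HH1, and was at least 2.86-fold higher at HH2 (adjusted p = 1.57e-05). This one also fell by 1.96 ± 0.37 on the log2 scale (adjusted p = 0.000159) at HH38 relative to HH16, with 48.5 and 41.1 at HH38 and 154 and 198 at HH16, where the first had 0.20 and the second -0.0081. With HH34 in place of HH38 its change was -0.47 ± 0.37 (adjusted p = 0.387), so that call rests on HH38, and the second had 0.67 ± 0.23 (adjusted p = 0.0259). The second RXRG probe set had r = -0.49 with the first over 15 stage means. It was above background on only 10 arrays, and on both arrays of a stage only at HH38. By limma's F test it did not differ between stages (adjusted p = 0.0558), so an opposite course cannot be read from it.

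The other genes of the pathway come from lists written with earlier results of these data known, and 35 of them were on the array. Each of them, and each marker, was read only from its probe set of highest mean log2 signal. Several had more probe sets that passed the filter (3 in all for CYP26C1, 2 for CYP26B1, 4 for RDH10 and 3 for HOXB1). Whether those other probe sets gave the same course is not shown here. Of the breakdown enzymes, CYP26C1 is the neighbour of CYP26A1 in the chicken gene annotation. Its stage means were 66.5 at HH1, 138 at HH2, 587 at HH4, 631 at HH6, 577 at HH11, 408 at HH16 and 42.5 at HH38. It rose at HH4 relative to HH2 by 2.09 ± 0.23 (adjusted p = 4.37e-07) and at HH16 relative to HH1 by 2.62 ± 0.23 (adjusted p = 2.43e-09), and fell by 3.27 ± 0.23 on the log2 scale (adjusted p = 1.02e-10) at HH38 relative to HH16 (-2.53 ± 0.23, also called, at HH34). At HH11 it was at 91.4% of its highest stage mean, and CYP26A1 was at 24.4% of its own.

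CYP26B1, the other enzyme of the family, was highest at HH1, with a stage mean of 620. It fell by 1.25 ± 0.22 on the log2 scale (adjusted p = 0.000161) at HH4 relative to HH2, with 156 at HH4, against 371 at HH2. At the same step CYP26A1 and CYP26C1 rose. CYP26B1 was also lower at HH16 than at HH1 (-1.03 ± 0.22, adjusted p = 0.000419), and its change at HH38 relative to HH16 was 0.11 ± 0.22 (adjusted p = 0.738), and 0.0094 ± 0.22 at HH34.

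**Figure D4:**
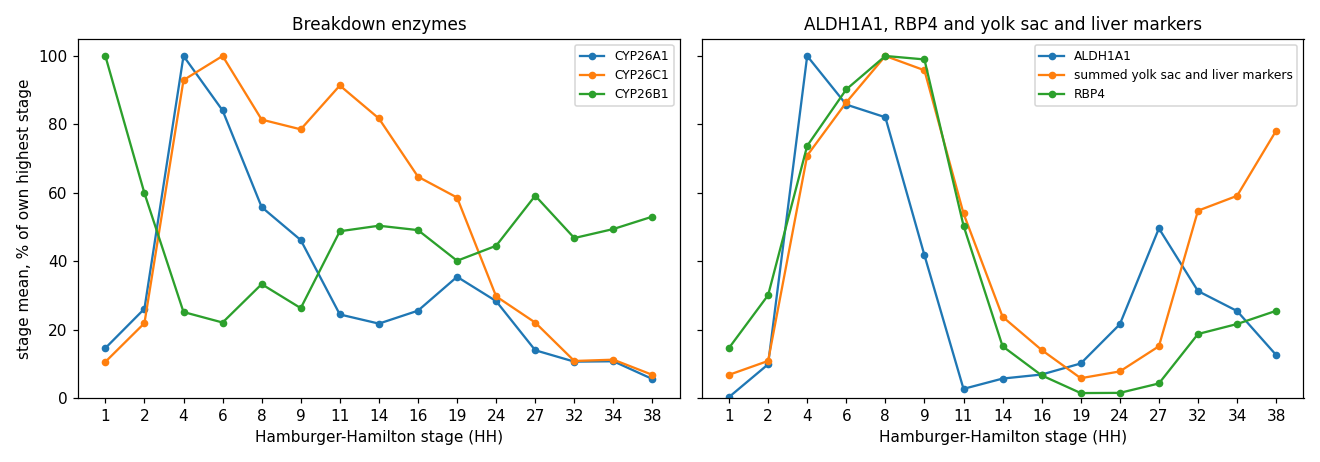
Stage mean signals as a percentage of the highest stage of each curve, against stage, for the CYP26 enzymes and for ALDH1A1 beside RBP4 and the summed yolk sac and liver markers. CYP26B1 is highest at HH1, CYP26A1 at HH4 and CYP26C1 at HH6. ALDH1A1 has its late high at HH27. The marker sum, which includes ALB, is at 5.76% of its highest at HH19, 7.74% at HH24, 15.1% at HH27 and 54.8% at HH32. The part of these cells in the course of ALDH1A1 was not tested.

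Of 14 genes of retinol supply and oxidation measured, 4 were higher and 2 lower at HH16 than at HH1, and 2 higher and 2 lower at HH38 than at HH16 (3 and 2 at HH34). Over all probe sets 24.8%, 20.1% and 14.5% were called in these comparisons. TTR, a plasma protein that carries RBP4 and is also among the yolk sac and liver markers, rose at HH16 relative to HH1 by 5.38 ± 0.13 (adjusted p = 1.77e-18). HH16 lay on a decline of TTR, with stage means of 240 at HH1, 37860 at HH8, the highest stage, 9973 at HH16 and 3690 at HH19. RBP4, the plasma carrier of retinol, fell by 1.15 ± 0.23 on the log2 scale (adjusted p = 0.000282) at HH16 relative to HH1 and rose at HH38 relative to HH16 by 1.95 ± 0.23 (adjusted p = 3.81e-07) (1.71 ± 0.23, also called, at HH34). Its stage mean was highest at HH8 (32590.1) and lowest at HH19 (459). BCO1, which cleaves beta-carotene to retinaldehyde, rose at HH38 relative to HH16 by 1.95 ± 0.70 (adjusted p = 0.0312), a call that did not hold at HH34 (1.48 ± 0.70, adjusted p = 0.119).

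RDH10, the enzyme before the ALDH1A step, was chosen after its values were seen. Its stage means ran between 3514 at HH1 and 7777 at HH4. Its changes were under 2-fold, 0.87 ± 0.061 at HH16 relative to HH1 (adjusted p = 5.23e-11) and -0.44 ± 0.061 at HH38 relative to HH16 (adjusted p = 3.24e-06). At HH34 relative to HH16 RDH10 had 0.0036 ± 0.061 (adjusted p = 0.976). HH4 was also the highest stage of ALDH1A1 and CYP26A1.

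FABP5, a fatty acid binding protein that can carry retinoic acid to nuclear receptors, rose at HH38 relative to HH16 by 2.37 ± 0.13 (adjusted p = 1.09e-12) and at HH34 relative to HH16 by 1.87 ± 0.13 (adjusted p = 9.04e-11). Of the other receptors measured, RARA was at least 3.1-fold higher at HH2 than at HH1 (adjusted p = 0.02), the step at which RARB rose. RARB had stage means of 1688 at HH2 and 2125 at HH4. RARA had 26.3 at HH1, 95.4 at HH2, its highest stage, 38.9 at HH4 (backgrounds 29.9 and 34.2) and 11.1 at HH27. Its change at HH16 relative to HH1 had an adjusted p of 0.0723, with both HH1 arrays below background, and at HH38 relative to HH16 it was -0.41 ± 0.59 (-0.63 ± 0.59 at HH34). RXRA had 0.59 ± 0.44 and -0.01 ± 0.44 over the same spans (-0.072 ± 0.44 at HH34), none of them called.

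Of 5 coregulators of these receptors, 0 were called at HH16 relative to HH1 by limma. There 2 had an unadjusted p below 0.05, and 2 had an adjusted p below 0.05 but were under 2-fold (NCOA1, -0.92 ± 0.25, and NRIP1, 0.84 ± 0.10). At HH38 relative to HH16 the coactivators NCOA1 and NCOA2 rose by 1.87 ± 0.25 (adjusted p = 2.61e-06) and 1.01 ± 0.37 (adjusted p = 0.0337). NRIP1, a corepressor known to be induced by retinoic acid, fell by 1.03 ± 0.10 on the log2 scale (adjusted p = 2.32e-08). The corepressor NCOR1 (0.17 ± 0.11) and the coactivator NCOA3 (0.88 ± 1.15) were not called. At HH34 relative to HH16 the calls of NCOA1 (1.49 ± 0.25) and NRIP1 (-1.18 ± 0.10) held and that of NCOA2 did not (0.32 ± 0.37, adjusted p = 0.574). NCOR1 had 0.15 ± 0.11 there and NCOA3 -0.14 ± 1.15.

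Of 13 measured genes known as targets of retinoic acid, 8 were higher and 0 lower at HH16 than at HH1, with 15% of all probe sets higher. At HH4 relative to HH2, 7 were higher and 0 lower, with a median log2 change of 1.73 and 6.24% of all probe sets higher. At HH38 relative to HH16, 2 were higher and 6 lower, with a median of -1.59, where 12.2% of all probe sets were higher and 7.88% lower. At HH34 relative to HH16 1 was higher and 6 were lower, with 14.5% of all probe sets called in either direction. NRIP1 and DHRS3 stand in this list and in another.

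The 3 with the largest called fitted log2 change over the 2 long spans were the Hox genes HOXD4, HOXB1 and HOXB4. The place of HOXB4 rests on an HH1 stage mean of 4.86, below background. HOXA4, chosen after its values were seen, rose at HH16 relative to HH1 by 5.17 ± 0.22 (adjusted p = 1e-14), a larger fold than the bound for HOXB4. HOXD4 was at least 76.6-fold higher at HH16 than at HH1 (adjusted p = 5.59e-13), with 1 of 2 HH1 arrays above background, and fell by 2.55 ± 0.34 on the log2 scale (adjusted p = 1.89e-06) at HH38 relative to HH16 (-2.57 ± 0.34 at HH34). HOXB4 was at least 7.06-fold higher at HH16 than at HH1 (adjusted p = 1.2e-08) and fell by 1.66 ± 0.53 on the log2 scale (adjusted p = 0.0158) at HH38 relative to HH16 (-1.73 ± 0.53 at HH34). HOXB1, with known retinoic acid response elements, rose at HH16 relative to HH1 by 2.58 ± 0.27 (adjusted p = 4.22e-08) and was at least 34.7-fold lower at HH38 than at HH16 (adjusted p = 3.41e-13). At HH34 relative to HH16 HOXB1 fell by 5.01 ± 0.27 on the log2 scale (adjusted p = 2.75e-12). Its stage means were 244 at HH1, 3107 at HH4, 1459 at HH16, 312 at HH24 and 97.7 at HH27.

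**Figure D5:**
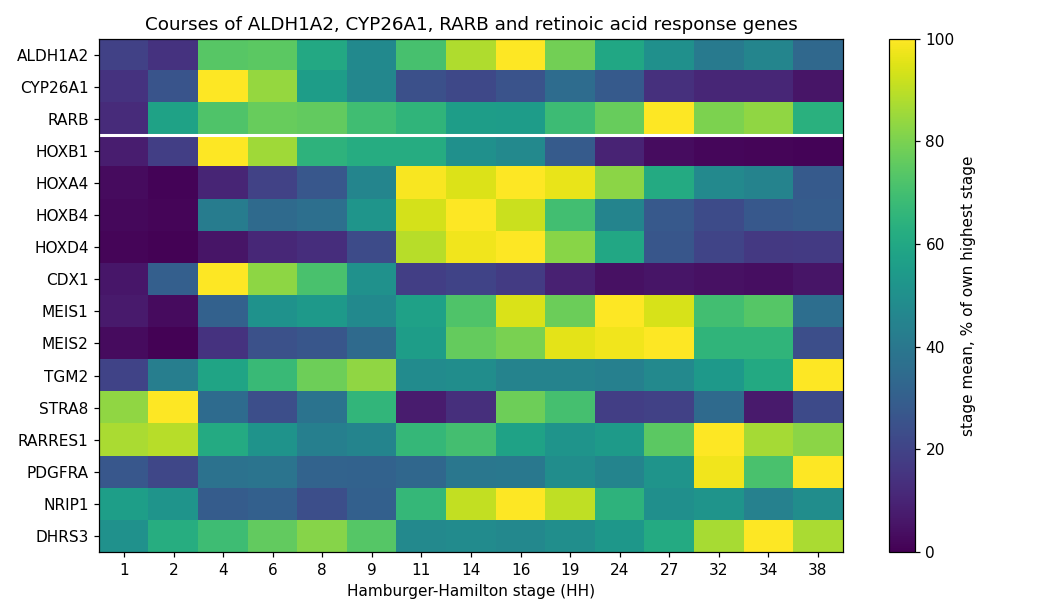
Stage mean signals as a percentage of the highest stage of each gene (colour), for genes of the pathway and response genes, against stage. HOXB1 and CDX1 are highest at HH4, as CYP26A1 is, and HOXA4, HOXD4 and NRIP1 are highest at HH16, as ALDH1A2 is. The other response genes are highest elsewhere. These are STRA8 (HH2), HOXB4 (HH14), MEIS1 (HH24), MEIS2 (HH27), RARRES1 (HH32), DHRS3 (HH34), and TGM2 and PDGFRA (HH38). STRA8 did not differ between stages by limma's F test (adjusted p = 0.166). Its stage means, 3.18 to 42.9, lay near or below background, so its scaled course cannot be read. HOXA4 is nearly level from HH11 (99% of its highest) to HH19 (96.5%), where ALDH1A2 is at 70.9% and 78.6%.

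The genes with courses most like those of the 7 were found by Pearson's r of the 15 stage means of log2 signal, among 12145 other genes. This is a description without a test, since all genes share the same 30 arrays. ALDH1A1 was closest to the fibrillin gene FBN2 (r = 0.96), CARMIL1 (0.94) and ZDHHC9 (0.94), all lowest at HH1 as it is. Both HH1 arrays of ALDH1A1 were below background, so its r values rest in part on values not above background. FBN2 had an HH1 mean of 30.7, between the backgrounds of the HH1 arrays (28.9 and 32.8). ALDH1A2 was closest to MESDC1 (0.96), HOXB2 (0.94) and HOXB4 (0.93), which is also among the response genes. ALDH1A3 was closest to ZCCHC24 (0.97), NCF4 (0.97) and the cartilage collagen gene COL11A1 (0.97).

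CYP26A1 was closest to 3 genes of metabolism, the glutathione synthetase GSS (0.96), SUCLG2 (0.96) and the malate dehydrogenase MDH1 (0.96). CRABP1 was closest to TRIL (0.98), HOXD13 (0.97), a Hox gene of the distal limb, and CYP27C1 (0.97), a cytochrome known from zebrafish and human to act on retinol. RARB was closest to GRM4 (0.97), APOA1BP (0.97) and NEDD4L (0.96), all lowest at HH1. RXRG was closest to KYNU (0.93), FBP2 (0.93) and LOC100859161 (0.93), all lowest at HH24. Their HH24 means (16.1, 3.36 and 16.6) lay below the backgrounds of the HH24 arrays (47.2 and 34.9), as the first HH24 array of RXRG did, so this likeness rests in part on values not above background. The lowest stage means of HOXB4, NCF4, COL11A1, HOXD13 and GRM4 were below background as well.

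Between the 7 genes themselves r was highest for ALDH1A1 and RARB (0.84), both lowest at HH1, where ALDH1A1 was below background. Next came ALDH1A3 and CRABP1 (0.75). The lowest r was that of CRABP1 and RXRG (-0.51), followed by ALDH1A3 and CYP26A1 (-0.48). ALDH1A2 and CYP26A1 had r = 0.42.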

How the data were processed

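The authors deposited 1 linear intensity value per probe set and array, made with MAS5 per the submitters' processing notes. For its version and settings, nothing is given in the sources used here. Per the labels' protocols, total RNA was labelled by a 3' IVT method. Every array had a trimmed mean of 500 (2% off each end) and 0 values at or below 0, and log2 was taken without rescaling. Gene symbols are the platform's: 27166 chicken probe sets carried a single symbol, 177 carried several and 10350 had no symbol. The GRCg7b gene table matched 26851 of those with a single symbol and changed 0 names. Genes of the pathway and marker lists were also matched by other names of a gene. RBP4 was thus read from a probe set with the symbol RBP4A, ADH5 (retinol supply and oxidation) from ADH4, and RAX (retina and eye) from RAX2.

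The 29600 chicken probe sets that reached the 40th percentile of 2 or more arrays were tested. limma 3.58.1 (R 4.3.3) fitted 1 mean per stage over all 30 arrays (eBayes with a variance trend, 15 residual degrees of freedom), with Benjamini-Hochberg adjustment within each contrast, and was tested on simulated data. A fold with an array of the dimmer stage below background is a bound with background in its place. Figures used Python 3.11.15 and matplotlib 3.10.9.

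The genes and lists were chosen with earlier results of these data known. Named from the other pathway lists were all members of lists with up to 6 measured genes, otherwise the 3 with the largest called change over HH16 minus HH1 or HH38 minus HH16, and the 3 genes of highest r with each of the 7. Of 4 kidney markers measured, 1 was higher and 1 lower at HH16 than at HH1. Alternatives were quantile and 75th percentile scaling, no variance trend, array weights, no filter and a 60th percentile filter, background as floor, averaged probe sets of a gene, a replicate block, and each array left out in turn. A planned motif search of promoters was not run.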

Additional observations from a re-analysis of the deposited data

How the results depend on the processing

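Counts of called genes among the 7 stayed within 1.5 times of those reported under every alternative run: 6 to 7 for a difference between stages, 4 to 6 at HH16 relative to HH1, 3 to 4 at HH38 relative to HH16 and 10 to 14 over the steps. Of 1450 refits of 37 single changes 1425 kept direction and call, 15 lost the call, 5 gained it and 5 changed sign. Most of these refits left out an array of neither stage compared. There the log2 change could not move and only the shared spread of the fit could, so the total says little about robustness. RXRG at HH16 relative to HH1 (-0.07) had 0.51 with its 2 probe sets averaged, of which the second was above background on only 10 arrays. With an array left out this RXRG change ranged between -0.24 and 0.10 (0.097 without HH1 replicate 2, 0.0995 without HH16 replicate 1). With averaged probe sets RARB at HH38 relative to HH16 had -0.59 and ALDH1A2 at HH16 relative to HH1 0.98, where 1 of the 3 ALDH1A2 probe sets averaged is below background throughout. With HH34 in place of HH38, a setting chosen after seeing the data, CRABP1 had 0.34 and RARB 0.59 relative to HH16. Quantile normalization gave CRABP1 -0.98 at HH38 relative to HH16, not called, and CYP26A1 -1.03 at HH38 relative to HH34, called. At HH27 relative to HH24 the calls of CYP26A1 and RXRG were lost without the variance trend, and RXRG also lost it with background as floor (1.02) and with averaged probe sets (0.99, adjusted p = 0.428). The median change of all probe sets at HH38 relative to HH16 was 0.046, and -0.15 with quantile and -0.12 with 75th percentile scaling. Where a cause is not given here, it was not tested.

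With the replicate block the 4 counts were 7, 5, 4 and 12, as without it, and no call of the 7 genes changed. Deviations of same-numbered arrays from their stage means correlated at r = -0.0305 to 0.0444 between stages, so the numbers were not treated as pairs. Signals near background limit what can be said of RXRG.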
